A study of Mus musculus with 6 samples.

Results

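The genes of the cytosolic ribosomal proteins and of their paralogs were compared between naive CD4+ T cells and CD4+ T cells activated for 2 days. They are the 87 of 14379 rows of the deposited table whose symbol starts with Rpl or Rps and a digit, or is *Rplp0*, *Rplp1*, *Rplp2* or *Rpsa*. The 10 rows of Rps6k kinases and 1 pseudogene row, *Rpl34-ps1*, were left out. Of the 87 rows, 43 are canonical proteins of the large subunit, 3 form the P-stalk and 31 belong to the small subunit, so that 77 make up the canonical core. A further 9 are paralogs, whose symbols carry an l or rt: *Rpl3l*, *Rpl7l1*, *Rpl22l1*, *Rpl32l*, *Rpl36al*, *Rpl37rt*, *Rpl39l*, *Rps27l* and *Rps27rt*. The last row, *Rps19bp1*, meets the rule by its letters only, since it encodes a protein that binds Rps19 and is no subunit.

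The cells came from lymph nodes and spleen of wild-type (WT) C57BL/6 mice, and all 6 libraries have this genotype. The 3 naive libraries are day 0 cells, labelled as primary culture cells, and the 3 activated libraries are day 2 cells treated with antibodies to CD3 and CD28 in medium that steered them to no helper lineage. Naive cells were sorted by FACS, and stimulation used plate-bound anti-CD3 and soluble anti-CD28. Unstimulated cells cultured to day 2 were not analysed here, and the effects of activation and of culture cannot be told apart. Values are on a log2 scale, headed FPKM (reads scaled by gene length and library size), in a sheet named for the ComBat batch correction. Between 688 and 923 genes in each library stand at the same value of 1.99, which was taken as the base, and linear units are given above it. Some values lie below it, down to 1.17. The sequencing depth is unknown. Calls required at least 1.5-fold between the groups and a Benjamini-Hochberg adjusted p under 0.05 in limma, fitted over 10173 genes.

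Each cytosolic ribosome joins a small subunit, which decodes the mRNA, to a large subunit, which links amino acids and sends the new chain out through a tunnel. Nearly every ribosomal protein is present in 1 copy per ribosome, so that cells make them in like amounts. Their mRNAs start with a run of pyrimidines, the 5′ terminal oligopyrimidine (TOP) tract, through which mTOR and Larp1 control their translation. T cells that leave quiescence enlarge and make many new ribosomes before they divide.

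The libraries matched their labels. Summed over 7 T cell markers, the level was 3767 to 4432 linear units in naive and 1228 to 1284 in activated libraries, and summed over 8 activation markers it was 305 to 336 and 3692 to 5065. The sums of other cell types were small: 7.42 to 34.8 naive and 9.89 to 17.1 activated for B cells (7 of 8 markers in the table, *Ebf1* under 1 unit throughout), 27.1 to 61.4 and 14.8 to 18.4 for myeloid cells (8 of 8, *Cd14* and *Adgre1* under 1 unit), and 137 to 180 and 190 to 267 for CD8 T and NK cells (8 of 8). In this last list only *Nkg7* was called higher (log2 fold change 1.99), while *Cd8b1*, *Klrd1* and *Klrb1c* were lower (-2.34, -2.96 and -1.34). For red blood cells they were 6.27 to 83.4 and 5.79 to 7.01 (7 of 7, *Slc4a1* under 1 unit). Their part in the results was not tested. Naive replicate 3 and activated replicate 1 differed from the remaining libraries of the same state. Across 76 core genes, the SD of the log2 difference was 0.08 between naive replicates 1 and 2 but 0.43 and 0.40 between these and replicate 3. It was 0.10 between activated replicates 2 and 3 and 0.17 and 0.21 between these and replicate 1. Naive replicates 1 and 2 had equal values off the base value, to within 1e-09, for 352 genes, and activated replicates 2 and 3 for 670, which was not seen between any other libraries of one group. The cause was not tested.

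Ribosomal protein mRNAs were among the most abundant of the cells in both states. In naive libraries the 87 genes held 42.2%, 41.3% and 37.8% of all linear units, and in activated libraries 31.4%, 38.7% and 39.7%. The means were 40.4% ± 2.3 (SD, n = 3) and 36.6% ± 4.5 (SD, n = 3), and the groups overlapped, since naive replicate 3 lay below activated replicates 2 and 3. Between 69 and 70 of the 100 most abundant genes were ribosomal protein genes in naive libraries, and between 66 and 68 in activated libraries. By subunit, small subunit genes, without *Rps27*, held 16.4% to 17.3% of all units in naive and 12.4% to 15.5% in activated libraries, with no overlap. The gap is not kept when *Rps27* and *Rps27rt* are counted in. Their summed log2 level was 12.07 in naive replicate 3 and 13.69 in activated replicate 3. Large subunit and P-stalk genes held 20.8% to 22.6% and 18.5% to 22.5%, which overlapped. The difference between the subunits was not tested. These are shares of units scaled by gene length, not of reads or of RNA mass. They come from bulk RNA, in which fewer cells of a type and less RNA per cell cannot be told apart.

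Within the family, single genes moved in opposite directions. Of the 86 members that passed the filter on low values, 17 were higher in activated cells, 21 were lower and 48 were not called, so that 44.2% were called, against 52.8% of all genes tested. Higher genes made up 31.2% of all genes tested and lower genes 21.6%. The heart and muscle paralog *Rpl3l* stood at the base value, between 1.98 and 2.01, and was not tested. All activated libraries lay above all naive libraries for 26 members and below them for 34, against 43.9% and 32.9% of all genes tested. The values of *Rps27* and *Rps27rt*, 2 copies that share much of their sequence, traded places between libraries and are described on their own. How reads were divided between them was not tested. Among the other 76 core genes, 10 were higher, 20 were lower and 46 were not called, with a median log2 fold change of -0.04, whereas the median of all genes tested was 0.13. By subunit, 5 of 43 large subunit genes were higher and 12 lower, and of the 31 small subunit genes 5 were higher, *Rps27* among them, and 8 lower.

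**Figure D1:**
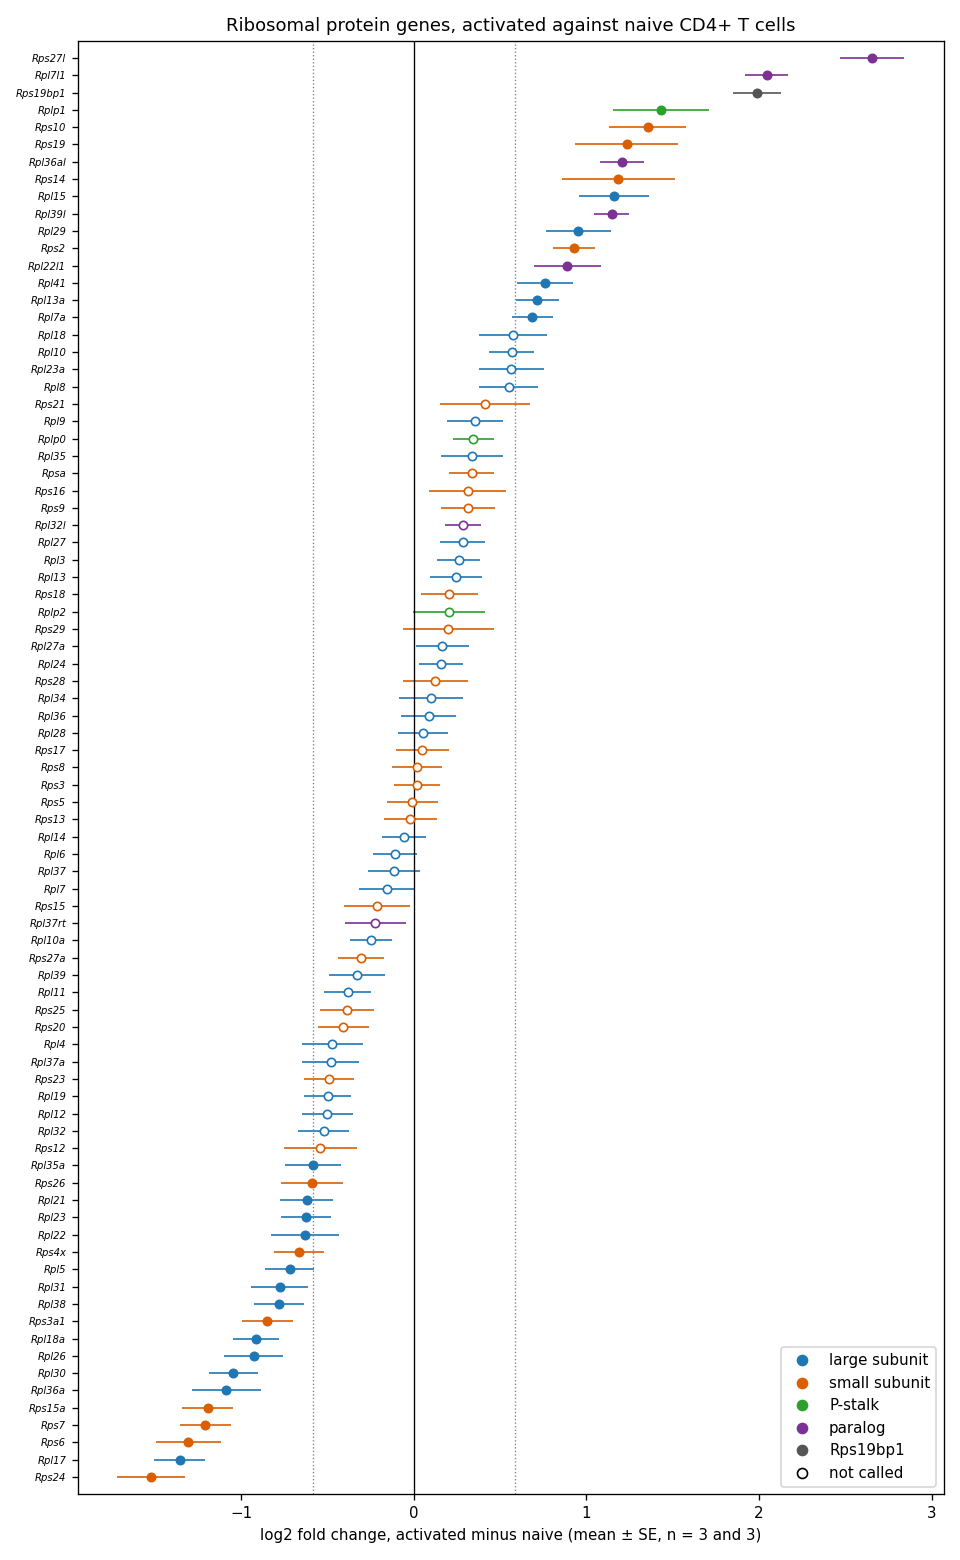
Log2 fold change of tested members, with *Rps27* and *Rps27rt* left out (x axis, activated minus naive, points with standard error, 3 libraries each). Filled points are called, open points are not, colors give the class, and dotted lines mark 1.5-fold. The paralogs *Rps27l* and *Rpl7l1* lie at the top, at 2.66 and 2.04, and *Rps24* at the bottom, at -1.52. The point of *Rpl39l* is set by the base value.

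The balance of higher and lower calls depended on the scaling. Scaled to the upper quartile, 14 members were higher and 31 lower, and among the 76 core genes 7 were higher and 30 lower. The whole table moved as well, from 3175 genes higher and 2195 lower to 2570 and 2729. Scaled to the total of all other genes, the core counts were 8 and 27, and with median-of-ratios scaling 9 and 27. Over all genes tested they were 2715 and 2571, and 2801 and 2481. Quantile normalization moved the members the other way, with 19 higher and 20 lower, and 13 and 19 in the core. Over all genes tested it gave 2595 higher and 2637 lower. Without naive replicate 3 and activated replicate 1, 10 core genes were higher and 12 lower, against 2475 and 2073 of 9157 genes tested.

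Of the core genes, the P-stalk gene *Rplp1* rose most. The P-stalk is the flexible arm of the large subunit that draws elongation factors to the ribosome. *Rplp1* stood at 13.20, 13.24 and 12.17 in naive replicates 1, 2 and 3 and at 14.00, 14.46 and 14.45 in activated replicates 1, 2 and 3. The log2 fold change was 1.43 with a standard error of 0.28 (limma, adjusted p = 0.0013). It was the most abundant core gene in all 3 activated libraries. Its partner *Rplp2* stood at 11.62, 11.36 and 10.79 and at 11.30, 11.51 and 11.57, and was not called (log2 fold change 0.20, standard error 0.21). *Rplp0*, the base of the stalk, was at 12.88, 12.90 and 12.82 in naive and at 13.21, 13.18 and 13.25 in activated libraries. Its groups did not overlap, but its change of 0.35 (standard error 0.12) was under 1.5-fold.

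*Rps10*, a small subunit protein that is tagged with ubiquitin when ribosomes stall, followed. Its naive libraries stood at 8.61, 8.64 and 7.78, the lowest mean of all core genes, and its activated libraries at 9.82, 9.67 and 9.60 (log2 fold change 1.36 ± 0.22 SE, limma adjusted p = 4.5e-04). *Rps19*, the gene most often mutated in Diamond-Blackfan anemia, rose from 9.93, 9.80 and 8.67 to 10.49, 10.72 and 10.89, a log2 fold change of 1.23 (standard error 0.30). For *Rps14*, whose loss marks the 5q- syndrome of bone marrow, the values were 12.08, 12.00 and 10.70 in naive and 12.54, 12.86 and 12.93 in activated libraries (log2 fold change 1.19, standard error 0.33). In *Rps10*, *Rps19* and *Rps14* naive replicate 3 minus the mean of naive replicates 1 and 2 was -0.845, -1.19 and -1.34, the lowest of the group each time.

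Large subunit genes were also among the rises. *Rpl15* rose from 9.75, 9.76 and 9.02 to 10.53, 10.75 and 10.73 (log2 fold change 1.16, standard error 0.20) and *Rpl29* from 11.22, 11.20 and 10.63 to 11.77, 12.12 and 12.01 (0.95, standard error 0.19). *Rps2*, a small subunit protein close to the mRNA entry, had nearly no spread within its groups, at 12.61, 12.65 and 12.54 against 13.49, 13.54 and 13.55 (log2 fold change 0.93 ± 0.12 SE, limma adjusted p = 1.1e-04). The last 3 higher core genes were *Rpl41*, which encodes the shortest ribosomal protein, with 0.76, *Rpl13a* with 0.72 and *Rpl7a* with 0.69. These 3 were not called after upper-quartile scaling.

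Among the 20 core genes that fell, *Rps24* fell most. This small subunit gene stood at 11.38, 11.37 and 11.79 in naive and at 9.60, 10.18 and 10.18 in activated libraries. The log2 fold change was -1.52 with a standard error of 0.20 (limma, adjusted p = 9.4e-05). *Rpl17*, whose protein lines the tunnel, went from 12.71, 12.69 and 12.95 to 11.27, 11.41 and 11.61 (log2 fold change -1.36, standard error 0.15). *Rps6*, the substrate after which the S6 kinases are named, went from 10.44, 10.48 and 11.07 to 9.49, 9.41 and 9.17 (-1.31, standard error 0.19). No activated library reached a naive one in any of the 20 genes, which their selection as called favors. The same held for 33 of the 76 core genes and for 32.9% of all genes tested.

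The next falls were equally clear of the spread. *Rps7* fell by 1.21 (log2, standard error 0.15), from 12.45, 12.50 and 12.59 to 11.06, 11.44 and 11.42. *Rps15a* fell by 1.20 (standard error 0.15), from 9.60, 9.48 and 9.62 to 8.12, 8.47 and 8.52, which made it the least abundant core gene of activated cells. Their groups did not overlap. Of the smaller falls, 14 had log2 fold changes between -1.09 for *Rpl36a* and -0.59 for *Rpl35a*. *Rps26*, the most abundant core gene of naive cells at 14.15 ± 0.26 (SD, n = 3), fell by 0.59 to 13.56 ± 0.23 (SD, n = 3), but this call was lost without naive replicate 3 (-0.44) or activated replicate 1 (-0.46), and its direction turned after quantile normalization. Single libraries also decided 5 of the other small falls, *Rpl22* among them, which is described with its paralog. Without naive replicate 3, *Rps4x* was at -0.56 and *Rpl23* at -0.56, and without activated replicate 1, *Rpl23* was at -0.53, *Rpl21* at -0.47 and *Rpl35a* at -0.44, all under 1.5-fold. *Rpl35a* also lost its call without naive replicate 1 (-0.53) or naive replicate 2 (-0.58).

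**Figure D2:**
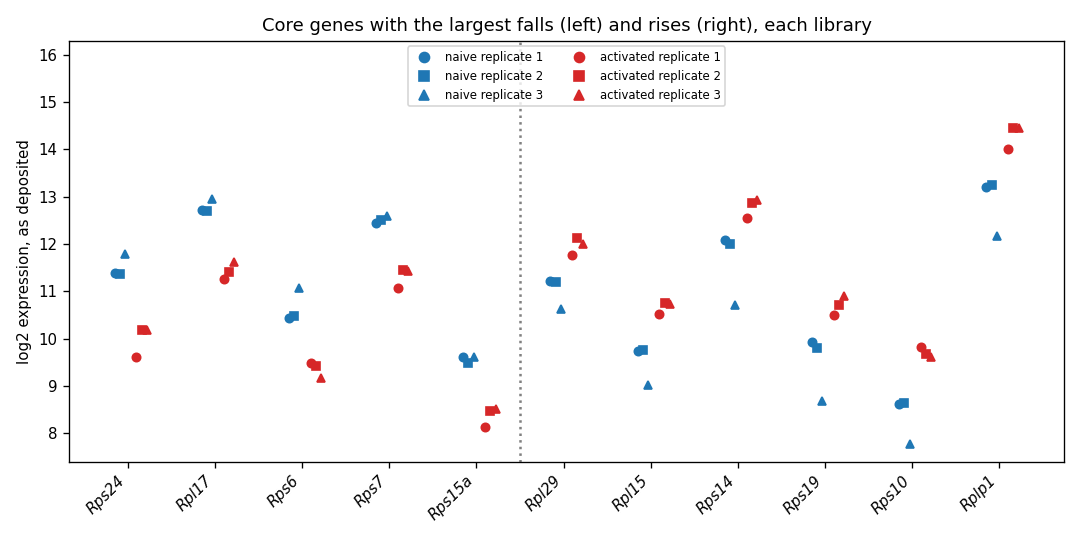
Log2 expression as deposited (y axis) of 5 core genes among those with the largest falls, left of the dotted line, and the 6 with the largest rises, right of it. Each point is a library, blue for naive and red for activated, with a shape for each replicate number. In none of these genes do the groups overlap, and naive replicate 3 is the lowest naive library in all 6 genes that rose.

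The order of the core genes by level changed with activation, although they kept a like spread. The SD of the log2 level across the 76 core genes was 1.07, 1.07 and 1.20 in naive and 1.12, 1.13 and 1.14 in activated libraries. In naive cells *Rps26* was followed by *Rpl32* at 13.42 ± 0.10 (SD, n = 3), and *Rps3a1* stood at 13.22 ± 0.18 and *Rpl41* at 13.22 ± 0.13. *Rps3a1* and *Rpl41* did not differ beyond their spread. In activated cells the order was *Rplp1* at 14.30 ± 0.26, *Rpl41* at 13.98 ± 0.26, *Rps26* at 13.56 ± 0.23, *Rps2* at 13.53 ± 0.03 and *Rplp0* at 13.21 ± 0.04, of which *Rps26* and *Rps2* did not differ beyond their spread. At the lower end stood *Rps10*, *Rpl24* at 8.98 ± 0.13 and *Rpl22* at 9.29 ± 0.28 in naive cells, and *Rps15a* at 8.37 ± 0.22, *Rpl22* at 8.66 ± 0.31 and *Rpl24* at 9.14 ± 0.07 in activated cells. Across the 76 genes the naive and activated means had a Pearson r of 0.81 and a Spearman rho of 0.81, a description of genes that share libraries.

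Proteins with a place or a second role of their own were looked at as groups. *Rpl5* and *Rpl11* bind 5S rRNA and, outside the ribosome, the p53 inhibitor Mdm2. *Rpl5* was at 11.35, 11.31 and 11.64 in naive and at 10.62, 10.81 and 10.71 in activated libraries and fell by 0.72 (standard error 0.14), a call that was lost without naive replicate 3 and activated replicate 1 together (-0.57). *Rpl11* had a log2 fold change of -0.38, under 1.5-fold, with no overlap. Of 8 proteins around the tunnel exit, 4 were lower (*Rpl17*, *Rpl26*, *Rpl31* and *Rpl22*), 0 were higher and the median log2 fold change was -0.57. The share called, 50%, was near the 52.8% of all genes tested, and the call of *Rpl22* was lost without naive replicate 3 or activated replicate 1 and that of *Rpl31* without both. Of 17 genes mutated in Diamond-Blackfan anemia, 4 were higher, with *Rps27* counted, 6 were lower and 7 were not called, and the share called, 58.8%, was again near that of all genes. *Rpsa*, also known as a laminin receptor, had a log2 fold change of 0.33, and *Rps27a*, made as a fusion with ubiquitin, had -0.31. Neither was called.

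*Rps27* and *Rps27rt* showed the largest changes of the family, in opposite directions. *Rps27* stood at the base value of 1.99 in naive replicates 1 and 2, at 12.02 in naive replicate 3 and at 11.32, 13.78 and 13.69 in the activated libraries. *Rps27rt* stood at 14.21, 14.06 and 7.31 in the naive libraries, at 6.27 in activated replicate 1 and at the base value in activated replicates 2 and 3. Each library thus gave nearly all units to 1 copy, to *Rps27rt* in naive replicates 1 and 2 (100%) and to *Rps27* in the other 4 (96.4% to 100%).

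The best-matching transcripts of the copies were the same over nearly their whole length. *Rps27* lies on the minus strand of chromosome 3 from 90212522 to 90213651 (GRCm38), and *Rps27rt*, a gene of 374 bases, on the minus strand of chromosome 9 from 114982366 to 114982739. Their annotated transcripts, of 345 and 374 bases, aligned over 341 bases without a gap, and all 341 were identical. The bases around the starts are shown because the transcripts themselves hold no difference over the aligned bases. Capitals mark the pyrimidine tract (RefSeq, GRCm38.p6, chr3:90213634-90213663 and chr9:114982725-114982754, both minus strand, 5′ to 3′, with the annotated start at base 16).
Rps27: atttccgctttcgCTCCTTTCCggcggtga
Rps27rt: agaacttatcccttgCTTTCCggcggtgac

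Summed over both copies, the log2 level was 14.21, 14.06 and 12.07 in naive and 11.36, 13.78 and 13.69 in activated libraries, a difference of -0.50 (exact two-sided permutation test, p = 0.5, where 0.1 is the smallest p that 3 libraries against 3 allow). Naive replicate 3 and activated replicate 1 were the lowest of their groups in this sum. Between these libraries the difference was -0.71, and between the other activated and naive libraries it was -0.40. The calls of *Rps27* as higher (log2 fold change 7.60, standard error 2.28) and of *Rps27rt* as lower (-8.45, standard error 1.78) therefore cannot be read separately.

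**Figure D3:**
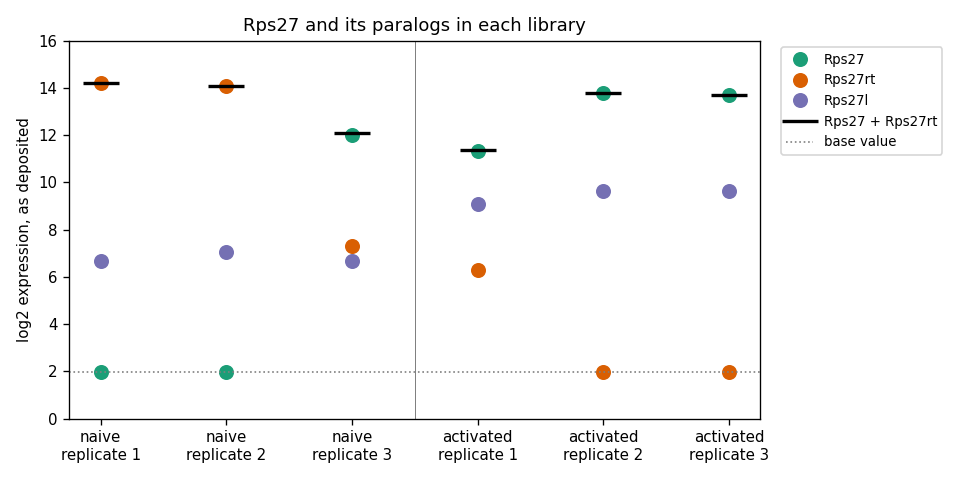
Log2 expression as deposited (y axis) of *Rps27*, *Rps27rt* and *Rps27l* in each of the 6 libraries. Points are genes, bars are the sum of *Rps27* and *Rps27rt*, and the dotted line is the base value of 1.99. *Rps27* and *Rps27rt* trade places between libraries, whereas *Rps27l* is between 6.67 and 7.05 in naive and between 9.09 and 9.65 in activated libraries.

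The paralogs *Rps27l*, *Rpl7l1*, *Rpl36al*, *Rpl22l1* and *Rpl39l* rose, and of the parents *Rpl7*, *Rpl36a*, *Rpl22* and *Rpl39* none was called higher. Of the 8 paralogs tested 5 were higher and 1, *Rps27rt*, lower, against 31.2% and 21.6% of all genes tested. But *Rpl39l* passed the filter only through the activated libraries and had to differ, and the call of *Rps27rt* cannot be read apart from *Rps27*. *Rps27l*, a p53 target in human cells, stood at 6.67, 7.05 and 6.68 in naive and at 9.09, 9.65 and 9.63 in activated libraries. Its log2 fold change was 2.66 ± 0.19 SE (limma, adjusted p = 2.0e-06). Its share of the summed units of *Rps27*, *Rps27rt* and *Rps27l* went from 0.51%, 0.74% and 2.24% in naive to 17.1%, 5.36% and 5.63% in activated libraries. Of its 50-base stretches, 16.2% occur in transcripts of other genes, against 91.1% for *Rps27rt*.

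*Rpl7l1* rose from 5.75, 5.85 and 5.70 to 7.85, 7.87 and 7.71 (log2 fold change 2.04 ± 0.12 SE, limma adjusted p = 8.2e-07). Its parent *Rpl7* stood at 12.09, 12.22 and 12.47 in naive and at 11.86, 12.25 and 12.20 in activated libraries, and its groups overlapped. Paralog minus parent, the log2 difference went from -6.49 ± 0.24 (SD, n = 3) to -4.29 ± 0.25 (SD, n = 3).

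*Rpl36al* lies on chromosome 12, away from its X-linked parent *Rpl36a*, and moved against it. The paralog rose from 6.84, 6.83 and 6.57 to 7.94, 7.94 and 7.99 (log2 fold change 1.21, standard error 0.13), and the parent fell from 11.94, 11.97 and 12.41 to 10.65, 11.17 and 11.25 (-1.09, standard error 0.20). Of the summed units of the pair, *Rpl36al* held 1.64% to 2.74% in naive and 9.32% to 13.1% in activated libraries.

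*Rpl22*, needed for the development of αβ T cells in mice, and *Rpl22l1* came close to the same level. *Rpl22* fell from 9.06, 9.20 and 9.61 to 8.32, 8.74 and 8.91 (log2 fold change -0.63 ± 0.20 SE, limma adjusted p = 0.016), a call lost without naive replicate 3 (log2 fold change -0.47) and without activated replicate 1 (-0.46). *Rpl22l1* rose from 7.68, 7.38 and 6.89 to 8.13, 8.29 and 8.20 (0.89 ± 0.19 SE, limma adjusted p = 0.0024), a call lost after quantile normalization. The paralog's share of the pair was 12.9% to 27.4% in naive and 37.7% to 46.8% in activated libraries.

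*Rpl39l*, best known from testis, had no units above the base value in naive cells, at 1.91, 1.90 and 1.88, and was at 3.29, 2.94 and 2.89 in activated cells, no more than 0.23% of the units of the pair. No fold is given for it, since the base value would set its size. *Rpl32l* (log2 fold change 0.29) and *Rpl37rt* (-0.22), which GENCODE M21 annotates as processed pseudogenes, were not called. *Rpl32l* was between 2.82 and 3.31 and *Rpl37rt* between 4.99 and 5.71 in the 6 libraries.

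The log2 difference between paralog and parent was compared between the groups in 9 pairs. It rose without overlap for *Rpl36al* (by 2.29), *Rpl7l1* (2.20), *Rpl22l1* (1.52) and *Rpl32l* (0.81). It also did not overlap for *Rpl39l* and *Rpl3l*, whose differences are set by the base value. Each gave p = 0.1 in an exact two-sided permutation test, the smallest that 3 libraries against 3 allow, and 0.13 when adjusted over the 9 pairs, so that no pair could pass. *Rpl37rt* differed by -0.11 (exact p = 0.4). The pairs of *Rps27l* and *Rps27rt* with *Rps27* hold the values that trade places between *Rps27* and *Rps27rt*, as described above, and are not read here.

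**Figure D4:**
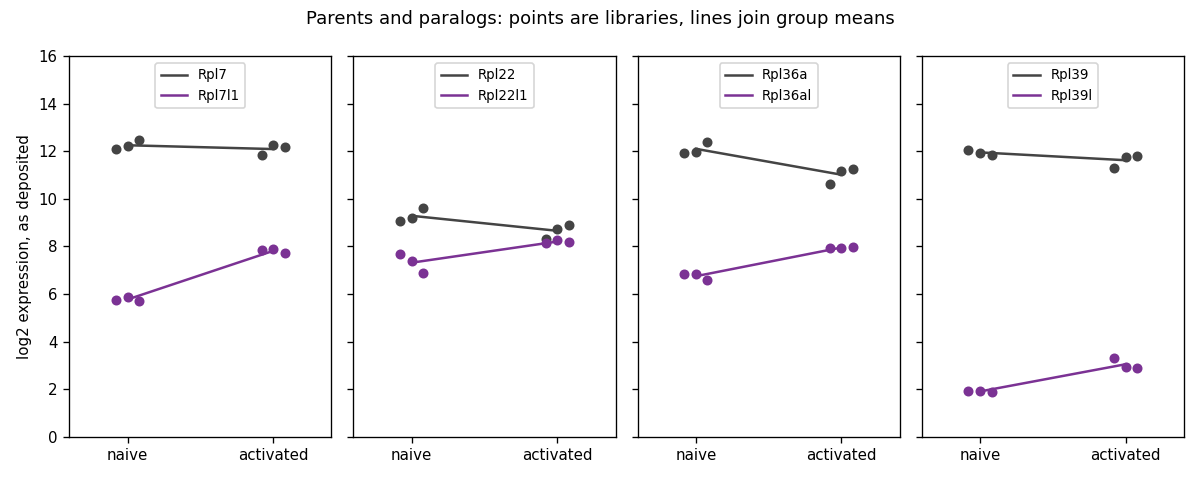
Log2 expression as deposited (y axis) of 4 parents, in grey, and their paralogs, in purple, in naive and activated cells. Points are libraries and lines join the group means. *Rpl22l1* reaches 8.13 to 8.29 in activated libraries, where *Rpl22* is at 8.32 to 8.91.

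The changes of core genes were also set side by side in libraries that share no sample. Across the 76 genes, the difference between activated replicate 1 and naive replicate 3 and that between the other activated and naive libraries had a Pearson r of 0.94 and a Spearman rho of 0.94, given as a description. Activated replicate 1 minus naive replicate 3 gave the larger size for 27 of the 30 called genes, for example 2.04 against 1.01 for *Rps10*, 1.81 against 0.94 for *Rps19* and -2.18 against -1.19 for *Rps24*.

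Higher and lower core genes also differed in base composition. The GC content of their annotated transcripts had a median of 55.6% (52.5% to 58.6%) in the 10 higher genes, 49.0% (46.6% to 57.4%) in the 20 lower genes and 52.2% (41.3% to 60.8%) in the 46 others. Across the 76 genes GC content had a Pearson r of 0.52 with the log2 fold change, and across 10170 genes tested it had 0.11. It also had r = -0.52 with the difference of naive replicate 3 from naive replicates 1 and 2, and -0.53 across all genes tested, so that GC content moved with the library that stood apart as well. Without that library and activated replicate 1, r with the difference was 0.48. After each library was adjusted for GC content, 7 core genes were higher and 25 lower, and *Rpl7a*, *Rpl13a* and *Rpl41* were not called. Of 10170 genes tested, 2645 were then higher and 2651 lower. The part of GC content in the result beyond this was not tested. Transcript length had r = -0.10 and the share of 50-base stretches found in other genes r = -0.01 with the log2 fold change.

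**Figure D5:**
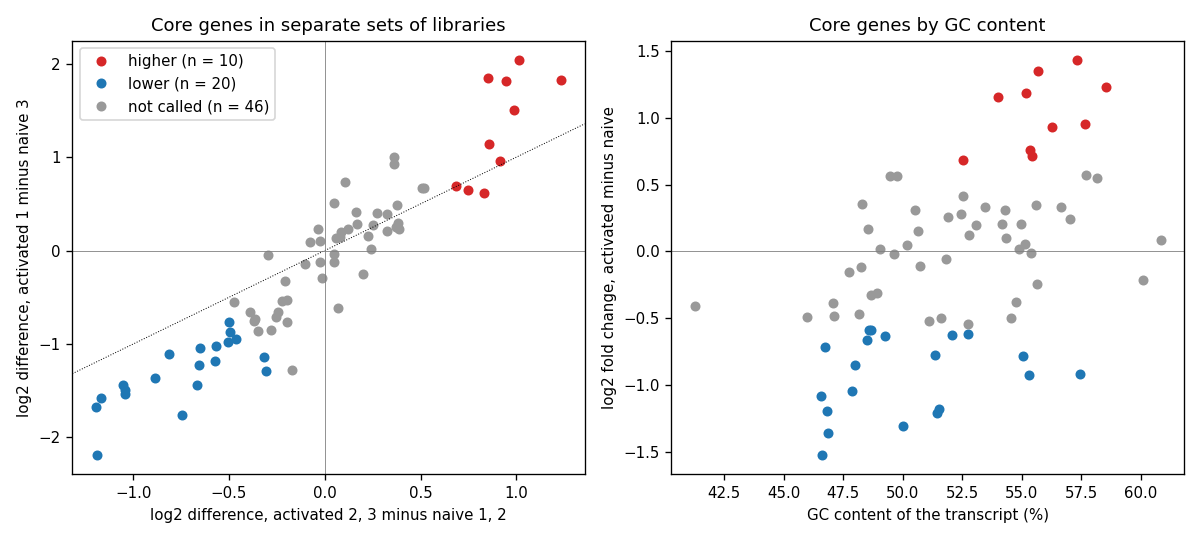
Left, log2 difference between activated replicate 1 and naive replicate 3 (y axis) against that between activated replicates 2 and 3 and naive replicates 1 and 2 (x axis) for 76 core genes, with a dotted line of equal values. Right, log2 fold change (y axis) against the GC content of the transcript in percent (x axis). Red points are higher, blue points lower and grey points not called. The differences on the axes of the left plot had r = 0.94. Equal signs of the called genes were fixed by the calling, since their groups do not overlap.

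The start sites were read for the TOP tract. RefSeq promoters were found for 56 of the 76 core genes, and 33 of these (58.9%) had a C followed by at least 4 further pyrimidines, read on the gene's own strand and beginning within 10 bases of the annotated start. Among the 11509 genes of the table with a promoter the share was 37.2%. The tract was there in 6 of 7 higher, 10 of 15 lower and 17 of 34 other core genes. Where none was found, these letters were only not in this window. The sequences below are of genes that rose (*Rpl15*, *Rps10*, *Rpl13a*), that fell (*Rps24*, *Rps6*) and of a paralog that rose and had no such tract (*Rpl7l1*), to show that both directions hold it. Capitals mark the tract, which in *Rpl13a* runs on past the window, all run 5′ to 3′ with the annotated start at base 16, and the build is GRCm38.p6.
Rpl15, chr14:18270972-18271001, minus strand: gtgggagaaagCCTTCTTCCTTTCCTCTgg
Rps10, chr17:27635230-27635259, minus strand: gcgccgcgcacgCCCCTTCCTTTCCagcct
Rpl13a, chr7:45128731-45128760, minus strand: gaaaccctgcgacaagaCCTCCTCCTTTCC
Rps24, chr14:24490663-24490692, plus strand: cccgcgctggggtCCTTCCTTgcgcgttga
Rps6, chr4:86857353-86857382, minus strand: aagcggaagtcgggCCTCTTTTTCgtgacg
Rpl7l1, chr17:46782642-46782671, minus strand: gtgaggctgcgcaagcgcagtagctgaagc

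Some ribosomal proteins carry other names. *Fau*, the ubiquitin-like fusion of Rps30, had -0.37 and *Rack1*, a scaffold on the small subunit, had 0.19, and neither was called. Of 17 other TOP mRNAs tested, 6 were higher, 5 were lower and 6 were not called. The share called was 64.7%, against 52.8% of all genes tested. *Npm1*, a nucleolar chaperone of ribosome assembly, had the highest log2 fold change at 1.84, and *Tpt1*, one of the most abundant mRNAs of naive cells at 14.23, 14.21 and 14.71, the lowest at -2.15.

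Genes that build ribosomes rose, in contrast to the mixed course of the proteins themselves. Of 52 ribosome biogenesis genes 50 were higher and 0 lower, against 31.2% and 21.6% of all genes tested. Their median log2 fold change was 1.53, and the largest were *Rrp9* with 2.77 and *Gar1* with 2.76, a part of H/ACA ribonucleoproteins. Of 10 chaperones and assembly factors that handle ribosomal proteins 8 were higher, led by *Grwd1* with 2.70, which escorts Rpl3, and *Tsr2* with 1.87, which escorts Rps26, and *Nop53* fell by 0.70. *Rps19bp1* rose with them, from 5.52, 5.67 and 5.37 to 7.38, 7.49 and 7.66 (log2 fold change 1.99 ± 0.14 SE, limma adjusted p = 1.8e-06). Of 16 genes of RNA polymerase I and its cofactors 13 were higher and *Taf1b* fell by 0.69.

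Regulators of TOP mRNAs and of Rps6 showed no common direction. Of 17 tested, 3 were higher, 4 lower and 10 not called, so that 41.2% were called, against 52.8% of all genes tested. *Larp1*, which binds TOP mRNAs, had a log2 fold change of 1.25 ± 0.19 SE and *Eif4ebp1*, an inhibitor of cap-dependent translation, of 3.28, and both were higher. *Rps6kb1*, the S6 kinase, stood at 4.16, 3.99 and 4.25 in naive and at 4.35, 4.27 and 4.12 in activated libraries, which overlapped, and *Rps6ka1*, a kinase of the RSK family, fell by 1.05 (standard error 0.16).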

How the data were processed

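PolyA RNA of 3 naive and 3 activated libraries of CD4+ T cells was sequenced. Per the labels and the methods, the authors used HISAT2 2.0.5 for alignment to mm10, StringTie 1.3.3b for assembly and featureCounts 1.5.0-p3 for read counting. The deposited values are on a log2 scale, headed FPKM, in a sheet named for ComBat. The authors describe the 3 libraries of each group as independent replicates. For the pseudocount, gene filter, batches and multiply matching reads, no setting is given in the sources used here. The p-values measure only the spread in these corrected values.

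Tested genes (10173 of 14379) exceeded the base value by 1 linear unit or more in at least 3 libraries. They were fitted by limma 3.58.1 in R 4.3.3 (lmFit, eBayes with trend, no covariate, Benjamini-Hochberg over all genes tested). The procedure was run on simulated data with independent libraries and 200 changed genes, which does not cover the likeness between some libraries here. Because the table holds no counts, the authors' DESeq2 test was not used. The members, the gene lists and the alternatives were chosen with earlier results of these data known. The paralog pairs of *Rpl32l* and *Rpl37rt* and the GC adjustment were added after the data were seen. The exact permutation test over the 6 libraries was two-sided. Named genes are the P-stalk, the paralogs with their parents, the 5S RNP genes, *Rps27a*, *Rpsa*, the 6 core genes with the largest change in each direction, members whose call depends on the setting and the leading genes of the other lists. Other core genes were named after their values were seen. Some genes that this rule names are not reported here, although counts and sums include them. GC content and length are medians over GENCODE M21 protein-coding transcripts of a gene, matched by symbol (14374 of 14379 symbols were in its table), and 50-base stretches were searched on the sense strand of all its transcripts. Tables were made in Python 3.11.15 with scipy 1.17.1 and pandas 2.3.3, and figures with matplotlib 3.10.9.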

Additional observations from a re-analysis of the deposited data

How the results depend on the processing

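Many ribosomal protein reads match pseudogenes or copies: a median of 35.5% of the 50-base stretches of a core transcript occur in another gene, and the handling of such reads is unknown, so that levels of single genes are less certain than their spread between libraries shows. Of the core genes called, 4 of 10 higher and 8 of 20 lower kept their call under all 23 alternatives. With a 2-fold threshold 11 members were higher and 9 lower, and of the core 5 and 8, against 1913 and 1181 of all genes tested. With the adjusted p alone 16 core genes were higher and 30 lower, against 4192 and 3201 of all genes tested. Without naive replicate 3 and activated replicate 1, 12 members, all of the core, were lower. Leaving out each library in turn gave 16 to 21 higher and 16 to 23 lower members, and 10 to 14 and 15 to 22 in the core. *Rps26* turned to 0.12 after quantile normalization. With linear values as deposited, base value included, the members held 38.0% of all units in naive libraries. Scaling to the upper quartile moved the median log2 fold change of all genes from 0.13 to -0.04, that of the core from -0.04 to -0.27, and the share of higher among all called genes from 59.1% to 48.5%. The values gave no sign that the replicate numbers pair the samples: same-numbered libraries deviated from their group means with r = -0.01, -0.05 and -0.14. Taken from 3 libraries per group in a sheet named for batch correction, these r cannot show whether samples were paired. With the replicate number as a block, the calls among members were still 17 higher and 21 lower. Differences between paralog and parent kept their direction in the alternatives run.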
